A study of Mus musculus with 13 samples.

Results

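The Ms4a family was described here through 7 genes of the deposited table of 19737 genes, chosen by symbol: Ms4a4a, Ms4a4b, Ms4a4c, Ms4a6b, Ms4a6c, Ms4a6d and Ms4a7. All 7 were listed, and each was above 0 in all 13 libraries. The libraries were made from ribosome-depleted total RNA of mouse microglia, and the values were FPKM (fragments scaled to gene length and to library depth). The wild type group carried the EGFP reporter delivered by AAV PHP.eB, a viral capsid that reaches the mouse brain from the blood (n = 3). The same EGFP vector was given to 5xFAD mice (n = 2), a transgenic line used as a model of the amyloid deposits of Alzheimer's disease. A further group of 5xFAD mice received AAV PHP.eB with circPOLR2A, a circular RNA (n = 4). Circular RNAs can bind PKR, the kinase that senses double-stranded RNA and is encoded by Eif2ak2. The treatment labels of these libraries read (9,10), (9,11), (9,12) and (9,13) for replicates 1 to 4, whereas the series' own design gives (9,10) to all of them. The fourth group was 5xFAD with a knockout of PKR (5xFAD; PKR KO, n = 4), for which the labels name no vector. Library names were given for that group alone, so the knockout, the lack of a named vector and any difference in library making cannot be told apart. The labels give no age, sex or sorting method. They do not say whether replicates were separate animals, so the p-values measure only the spread between these libraries.

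MS4A proteins cross the membrane several times, and most of their genes lie side by side in a single cluster. The best known is CD20, the B cell antigen encoded by Ms4a1. In the brain the family is expressed by microglia and by the macrophages of the brain's borders, and variants in the human MS4A cluster are associated with Alzheimer's disease risk and with the level of soluble TREM2 in cerebrospinal fluid. The mouse cluster has several copies where the human cluster has 1 gene: Ms4a6b, Ms4a6c and Ms4a6d are the mouse relatives of human MS4A6A.

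The 7 members lay within 283.8 kb of chromosome 19 in GRCm38, the build also called mm10. From the low to the high coordinate these were Ms4a7 (11321039 to 11336146, minus strand), Ms4a4a (11375523 to 11392790, plus), Ms4a4c (11404770 to 11427246, plus), Ms4a4b (11443553 to 11467055, plus), Ms4a6c (11469366 to 11482192, plus), Ms4a6b (11516512 to 11531256, plus) and Ms4a6d (11586604 to 11604849, minus). Ms4a4d was the only other listed Ms4a gene inside that span. Close copies can share reads, so the coding sequences were compared. Ms4a4b and Ms4a4c were the closest pair, with 91.7% identical bases, followed by Ms4a6b and Ms4a6c with 85.1%, Ms4a6b and Ms4a6d with 81.4%, and Ms4a6c and Ms4a6d with 77.9%. The longest identical stretches of the first pairs are printed in capitals with 20 bases on each side, since a short read from within the capitals cannot be placed on 1 gene. They were read from GENCODE M21 transcripts of GRCm38. The stretch of Ms4a6b was at chr19:11526729-11526823 and that of Ms4a6c at chr19:11478197-11478291, each within 1 coding exon and on the plus strand. For Ms4a4b it spanned 3 exons between chr19:11457841-11461285 and for Ms4a4c 3 exons between chr19:11417688-11421286, also on the plus strand.
Ms4a6b: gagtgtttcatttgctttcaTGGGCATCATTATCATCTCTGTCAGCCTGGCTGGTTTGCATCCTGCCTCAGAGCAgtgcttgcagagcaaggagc
Ms4a6c: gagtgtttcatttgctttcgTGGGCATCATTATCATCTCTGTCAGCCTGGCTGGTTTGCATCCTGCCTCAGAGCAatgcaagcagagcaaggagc
Ms4a4b: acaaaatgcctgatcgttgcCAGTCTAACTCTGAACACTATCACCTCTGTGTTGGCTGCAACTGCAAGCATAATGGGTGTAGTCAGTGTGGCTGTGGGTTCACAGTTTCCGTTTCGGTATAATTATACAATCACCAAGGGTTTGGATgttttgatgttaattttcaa
Ms4a4c: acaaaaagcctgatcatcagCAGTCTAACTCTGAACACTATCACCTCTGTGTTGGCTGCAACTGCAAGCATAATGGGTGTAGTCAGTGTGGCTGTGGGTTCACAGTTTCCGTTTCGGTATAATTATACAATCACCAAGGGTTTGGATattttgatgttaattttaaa

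The shared stretch was 55 bases long in Ms4a6b and Ms4a6c and 127 bases long in Ms4a4b and Ms4a4c. Over whole transcripts, 3.57% of the 50-base windows of Ms4a6b, 10.5% of those of Ms4a6c, 2.54% of those of Ms4a6d and 8.19% of those of Ms4a4c were also found in a transcript of another gene. Ms4a4a had no such window. At 100 bases Ms4a6b and Ms4a6d had none, Ms4a6c had 0.513% (shared with Prdm11 and no member) and Ms4a4c 1.66% (shared with Ms4a4b). Most of each gene's length was therefore its own. Of the 50-base windows of Ms4a4b, 2.40% were shared.

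The upstream regions of Ms4a6b and Ms4a6c were also alike, and they are printed because these genes differed in their behaviour below. The sequences are RefSeq's for GRCm38.p6, on the plus strand, and run from 250 bases before each RefSeq start up to the aligned base at which an exon of another Ms4a6b transcript begins: chr19:11518309-11518452 for Ms4a6b and chr19:11469118-11469330 for Ms4a6c. Capitals mark the identical runs of at least 10 bases, 3 runs with 46 bases in all up to that point. The third run continues past the printed end, and at 48 bases it was the longest shared run of the 250 bases.
Ms4a6b: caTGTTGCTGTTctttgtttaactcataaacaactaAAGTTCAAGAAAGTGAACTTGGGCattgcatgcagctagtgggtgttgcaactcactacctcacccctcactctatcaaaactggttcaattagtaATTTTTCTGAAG
Ms4a6c: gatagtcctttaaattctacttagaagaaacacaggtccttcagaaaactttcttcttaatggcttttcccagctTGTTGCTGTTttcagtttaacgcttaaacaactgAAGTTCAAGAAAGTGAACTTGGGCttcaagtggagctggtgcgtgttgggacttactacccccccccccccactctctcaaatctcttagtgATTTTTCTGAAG

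Both held the letters GAAANNGAA, the spacing of interferon regulatory factor half-sites, inside the middle run. The match lay 198 to 206 bases before the RefSeq start of Ms4a6b and 125 to 133 bases before that of Ms4a6c, and the letters were searched on both strands after the shared run had been seen. Of all 32851 promoters of that table, 7.13% had a match in the same 250 bases. Both RefSeq promoters of Ms4a7 had 1 as well, while those of Ms4a4a, Ms4a4b and Ms4a4c had none. Ms4a6d was not matched in the promoter table. These are matches of letters only.

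The depth recovered from the FPKM steps was 45.2 to 70.0 M fragments for each library. A member's counting error was 2.34% to 4.29% for Ms4a6b, 2.92% to 4.39% for Ms4a6d, 3.67% to 4.99% for Ms4a6c, 5.48% to 8.53% for Ms4a7 and 6.28% to 13.5% for Ms4a4a. It was 11.5% to 25.0% for Ms4a4c and 22.9% to 70.7% for Ms4a4b. All 10 microglia markers fixed for the label check (among them P2ry12, Tmem119 and Csf1r) were detected, with a sum of 2822 to 4817 FPKM per library, and the sum of 10 T and NK cell markers was 0.561 to 1.54 FPKM. Wild type replicate 3 stood apart: its microglia marker sum of 2822 FPKM was the lowest of the 13, and its oligodendrocyte marker sum of 1134 FPKM was the highest, against 288 and 266 FPKM in the other wild type libraries. Eif2ak2, which encodes PKR, read 3.31 to 4.61 FPKM in the 5xFAD; PKR KO libraries, 6.49 and 6.59 FPKM in 5xFAD EGFP, 7.37 to 8.11 FPKM with circPOLR2A and 4.14 to 5.23 FPKM in wild type. The knockout libraries were below every other 5xFAD library but overlapped with wild type, and the labels do not say which exons were deleted.

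Within the family, Ms4a6d was the most abundant member per kilobase in every group and Ms4a4b the least. In wild type the mean FPKM fell in the order Ms4a6d, Ms4a6b, Ms4a6c, Ms4a4a, Ms4a7, Ms4a4c and Ms4a4b. In all 3 groups of 5xFAD the places of Ms4a6b and Ms4a6c were exchanged. The exchange is in FPKM and so depends on the exon lengths, 4485 bases for Ms4a6b and 2050 bases for Ms4a6c. In wild type, neighbours in that order among Ms4a6d, Ms4a6b, Ms4a6c and Ms4a4a overlapped over libraries, whereas Ms4a7, Ms4a4c and Ms4a4b were each apart from the next.

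**Figure D1:**
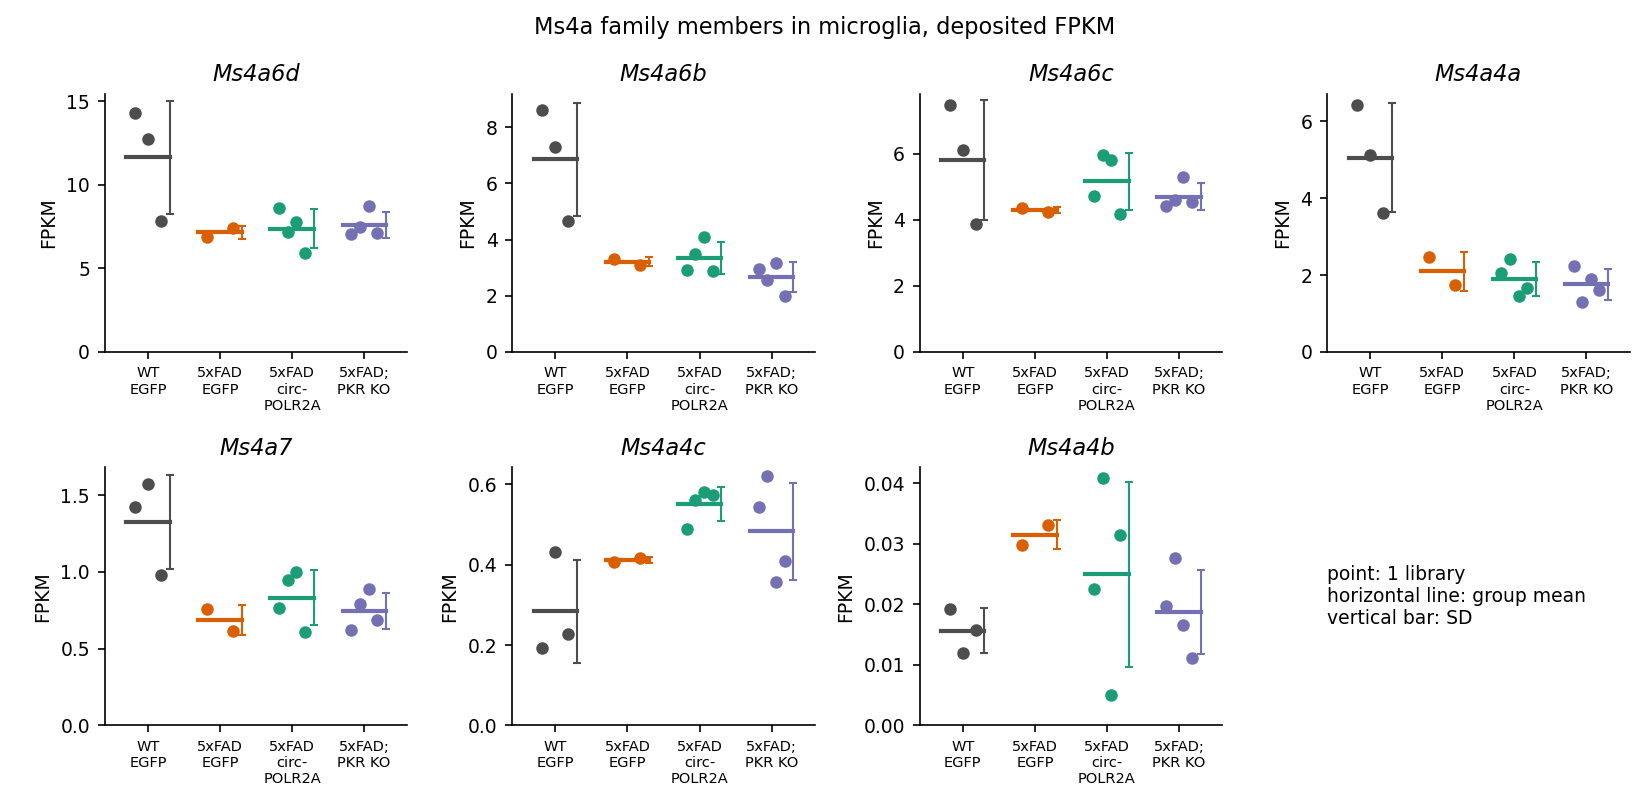
FPKM of the 7 members in each of the 13 libraries by group, with a separate linear axis for each gene starting at 0; points are libraries, horizontal lines group means and vertical bars SDs. The 3 wild type libraries of Ms4a4a (3.60 to 6.43 FPKM) and Ms4a6b (4.67 to 8.60 FPKM) sit above all 10 libraries of 5xFAD, while those of Ms4a6c (3.88 to 7.47 FPKM) overlap with them.

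Ms4a6d was read at 14.3, 12.8 and 7.85 FPKM in wild type replicates 1 to 3. It was read at 6.88 and 7.44 FPKM in 5xFAD EGFP, at 8.63, 7.20, 7.80 and 5.89 FPKM with circPOLR2A and at 7.03, 7.49, 8.73 and 7.15 FPKM in 5xFAD; PKR KO. Wild type replicates 1 and 2 were above every other library, but replicate 3 lay among the 5xFAD libraries.

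Ms4a6b was read at 8.60, 7.30 and 4.67 FPKM in wild type. Its values were 3.32 and 3.09 FPKM in 5xFAD EGFP, 2.91, 3.50, 4.08 and 2.89 FPKM with circPOLR2A and 2.94, 2.56, 3.17 and 1.98 FPKM in 5xFAD; PKR KO. The lowest wild type library was above the highest 5xFAD library. Such gaps were common: of the 10817 genes whose mean reached 1 FPKM, 21.1% lay below all wild type libraries in 5xFAD EGFP, 8% with circPOLR2A and 21.1% in 5xFAD; PKR KO, and 16.5%, 20.2% and 19.8% lay above them. Its neighbour Ms4a6c was read at 7.47, 6.10 and 3.88 FPKM in wild type. The 5xFAD libraries gave 4.35 and 4.23 FPKM with EGFP, 4.72, 5.97, 5.82 and 4.18 FPKM with circPOLR2A, and 4.40, 4.60, 5.28 and 4.52 FPKM with the knockout. For Ms4a6c the groups overlapped, and wild type replicate 3 was the lowest library of all.

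Ms4a4a, known as a macrophage surface protein, was read at 6.43, 5.12 and 3.60 FPKM in wild type. It was read at 2.46 and 1.74 FPKM in 5xFAD EGFP, at 2.06, 2.42, 1.46 and 1.65 FPKM with circPOLR2A and at 2.24, 1.30, 1.90 and 1.60 FPKM in 5xFAD; PKR KO. The groups of 5xFAD overlapped with each other and none reached wild type. Ms4a7, used elsewhere as a marker of border macrophages, was read at 1.42, 1.57 and 0.979 FPKM in wild type. Its values were 0.758 and 0.618 FPKM in 5xFAD EGFP, 0.763, 0.949, 0.999 and 0.609 FPKM with circPOLR2A and 0.619, 0.789, 0.890 and 0.685 FPKM in 5xFAD; PKR KO. Only circPOLR2A replicate 3 reached the lowest wild type library.

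Ms4a4c and Ms4a4b, known from T cells and, for Ms4a4c, also from interferon-treated myeloid cells, were low. Ms4a4c was read at 0.193, 0.431 and 0.226 FPKM in wild type, at 0.406 and 0.416 FPKM in 5xFAD EGFP, at 0.488, 0.562, 0.581 and 0.574 FPKM with circPOLR2A and at 0.544, 0.620, 0.358 and 0.410 FPKM in 5xFAD; PKR KO. Here the circPOLR2A libraries were above every wild type library, the opposite direction to Ms4a4a. The same held for 20.2% of the 10817 genes whose mean reached 1 FPKM. Ms4a4b was read at 0.0193, 0.0119 and 0.0158 FPKM in wild type, 0.0298 and 0.0332 FPKM in 5xFAD EGFP, 0.0225, 0.0409, 0.00504 and 0.0314 FPKM with circPOLR2A and 0.0197, 0.0277, 0.0166 and 0.0111 FPKM in 5xFAD; PKR KO. These Ms4a4b values rest on 2 to 19 fragments, and no change is read from them.

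The comparison of 5xFAD with wild type, each given EGFP, addresses the change of microglial RNA with the transgenes. Ms4a4a and Ms4a6b fell in 5xFAD, from 5.05 ± 1.42 to 2.10 ± 0.51 FPKM and from 6.86 ± 2.00 to 3.21 ± 0.16 FPKM (SD, n = 3 and n = 2). The wild type means were 2.40 and 2.14 times the 5xFAD means. Ms4a6d had means of 11.6 ± 3.37 and 7.16 ± 0.40 FPKM and Ms4a6c of 5.82 ± 1.81 and 4.29 ± 0.08 FPKM, and neither passed the test. In bulk RNA, fewer cells that express a gene and less RNA per cell cannot be told apart.

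The test was limma on log2(FPKM + 1) over the 10817 genes whose mean reached 1 FPKM, with a Benjamini-Hochberg adjusted p below 0.05 as the threshold, and 4 of the 7 members passed that filter (Ms4a4a, Ms4a6b, Ms4a6c and Ms4a6d). Of these, 2 were called lower and none higher, and 6.35% of all genes tested were called lower. The difference was -0.95 ± 0.20 (SE) on the log2 scale for Ms4a4a (adjusted p = 0.00913) and -0.87 ± 0.20 for Ms4a6b (adjusted p = 0.0132). For Ms4a6d it was -0.59 ± 0.20 (adjusted p = 0.0678) and for Ms4a6c -0.33 ± 0.19 (adjusted p = 0.303, 95% interval -0.74 to 0.08). The median over these members was -0.73, against -0.03 over all genes tested. Fold changes on this scale understate those of genes near 1 FPKM. The exact two-sided permutation test over libraries gave p = 0.10 for Ms4a4a, the smallest that 3 against 2 libraries allow, and p = 0.20 for Ms4a6b. Both calls rested on the 5xFAD EGFP libraries: without replicate 2 limma's adjusted p was 0.127 for Ms4a4a and 0.114 for Ms4a6b, without replicate 1 it was 0.0683 for Ms4a6b, and in a fit of these groups alone it was 0.0679 and 0.0887. Without wild type replicate 3 all 4 members were called lower by limma, with Ms4a6d at -0.83 (adjusted p = 0.00219) and Ms4a6c at -0.55 (adjusted p = 0.0188). In that fit 9.51% of all genes tested were called lower.

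Against wild type, 5xFAD microglia with circPOLR2A had lower Ms4a4a, Ms4a6b and Ms4a6d. The means with circPOLR2A were 1.90 ± 0.43 FPKM for Ms4a4a, 3.34 ± 0.57 FPKM for Ms4a6b and 7.38 ± 1.15 FPKM for Ms4a6d (SD, n = 4), so that wild type stood 2.66, 2.05 and 1.58 times higher. Ms4a6c had a mean of 5.17 ± 0.86 FPKM, 11.1% below wild type, and was not called. In this contrast 3 of the 4 members tested were called lower, and 8.05% of all genes were. The limma differences were -1.05 ± 0.17 for Ms4a4a (adjusted p = 0.000762), -0.83 ± 0.17 for Ms4a6b (adjusted p = 0.00326), -0.57 ± 0.17 for Ms4a6d (adjusted p = 0.0250) and -0.12 ± 0.16 for Ms4a6c (adjusted p = 0.641, 95% interval -0.46 to 0.23). Their median was -0.70, against 0.02 over all genes. The exact permutation p was 0.0286 for Ms4a4a and for Ms4a6b, the smallest that 3 against 4 libraries allow, and 0.0571 for Ms4a6d. The calls of Ms4a4a and Ms4a6b held in each of the 7 fits that left out a library. That of Ms4a6d was lost without wild type replicate 1 (limma, adjusted p = 0.106) or 2 (adjusted p = 0.0875), without circPOLR2A replicate 2 (adjusted p = 0.0527) or 4 (adjusted p = 0.0583), and in a fit of these groups alone (adjusted p = 0.0929).

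Against wild type, the same members were lower in 5xFAD; PKR KO. Their means were 1.76 ± 0.40 FPKM for Ms4a4a, 2.66 ± 0.52 FPKM for Ms4a6b and 7.60 ± 0.78 FPKM for Ms4a6d (SD, n = 4), and wild type stood 2.87, 2.58 and 1.53 times higher. Ms4a6c had a mean of 4.70 ± 0.40 FPKM, 19.2% below wild type, and was not called. Of the 4 members tested, 3 were called lower, beside 19.4% of all genes. The limma differences were -1.12 ± 0.17 for Ms4a4a (adjusted p = 0.000371), -1.08 ± 0.17 for Ms4a6b (adjusted p = 0.000416), -0.52 ± 0.17 for Ms4a6d (adjusted p = 0.0273) and -0.22 ± 0.16 for Ms4a6c (adjusted p = 0.289, 95% interval -0.57 to 0.12). Their median was -0.80, against -0.05 over all genes. The exact permutation p was 0.0286 for Ms4a4a and Ms4a6b and 0.0571 for Ms4a6d. The calls of Ms4a4a and Ms4a6b held in each of the 7 fits that left out a library. That of Ms4a6d was lost without wild type replicate 1 (limma, adjusted p = 0.124) or 2 (adjusted p = 0.0882), without knockout replicate 1 (adjusted p = 0.0624), 2 (adjusted p = 0.0567) or 4 (adjusted p = 0.0618), and in a fit of these groups alone (adjusted p = 0.0589), and Ms4a6c was called lower without wild type replicate 3 (-0.45, adjusted p = 0.0144). The 3 comparisons with wild type share the same wild type libraries.

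Ms4a7 and Ms4a4c entered the fit only when the filter was lowered to a mean of 0.3 FPKM, and they moved in opposite directions. Ms4a7 had means of 1.32 ± 0.31 FPKM in wild type, 0.688 ± 0.099 FPKM in 5xFAD EGFP, 0.830 ± 0.179 FPKM with circPOLR2A and 0.746 ± 0.119 FPKM in 5xFAD; PKR KO. By limma it was called lower than wild type in 5xFAD EGFP (-0.45, adjusted p = 0.0302), with circPOLR2A (-0.34, adjusted p = 0.0309) and in 5xFAD; PKR KO (-0.41, adjusted p = 0.00970). At that filter 7.69%, 10.1% and 22.8% of 13021 genes were called lower in these comparisons. The knockout call held without each library in turn, with adjusted p up to 0.0384. In 5xFAD EGFP the call was lost without 5xFAD EGFP replicate 1 (limma, adjusted p = 0.0930) or 2 (adjusted p = 0.233) and without wild type replicate 1 (adjusted p = 0.0829) or 2 (adjusted p = 0.0748). With circPOLR2A it was lost without wild type replicate 1 (limma, adjusted p = 0.0927) or 2 (adjusted p = 0.112) and without circPOLR2A replicate 1 (adjusted p = 0.0710) or 4 (adjusted p = 0.0697).

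Ms4a4c had means of 0.284 ± 0.129 FPKM in wild type, 0.411 ± 0.007 FPKM in 5xFAD EGFP, 0.551 ± 0.043 FPKM with circPOLR2A and 0.483 ± 0.121 FPKM in 5xFAD; PKR KO. By limma at the same filter it was called higher than wild type with circPOLR2A (0.28, adjusted p = 0.0280), where the circPOLR2A mean was 1.94 times that of wild type. It was not called in 5xFAD EGFP (0.14, adjusted p = 0.399) or in 5xFAD; PKR KO (0.21, adjusted p = 0.0639). In these comparisons 15.7%, 6.89% and 15.8% of genes were called higher. The summed T and NK cell markers moved with Ms4a4c: the sum was 0.561 to 1.02 FPKM in wild type, 0.880 to 1.13 FPKM in 5xFAD EGFP, 1.13 to 1.54 FPKM with circPOLR2A and 1.082 to 1.202 FPKM in 5xFAD; PKR KO. Between wild type and circPOLR2A the mean of Klrb1c, an NK cell receptor, was 0.0133 and 0.279 FPKM, that of the cytotoxic granule gene Nkg7 0.0153 and 0.194 FPKM and that of the T cell receptor subunit Cd3e 0.0100 and 0.0782 FPKM, while Cd4, at 0.600 and 0.413 FPKM, and the NK cell receptor Ncr1, at 0.0314 and 0.00718 FPKM, went the other way and Cd3d was at 0.0342 and 0.0412 FPKM. Cd3d, Cd3g, Cd8a, Nkg7, Klrb1c and Cd2 were at 0 in at least 1 wild type library, and the part of these cells in the Ms4a4c difference was not tested. The circPOLR2A call was lost without wild type replicate 1 (limma, adjusted p = 0.0989) or 3 (adjusted p = 0.0724) and without circPOLR2A replicate 2 (adjusted p = 0.0586) or 3 (adjusted p = 0.0600). The knockout difference passed without wild type replicate 2 (0.29, adjusted p = 0.0166) or knockout replicate 3 (0.25, adjusted p = 0.0445).

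**Figure D2:**
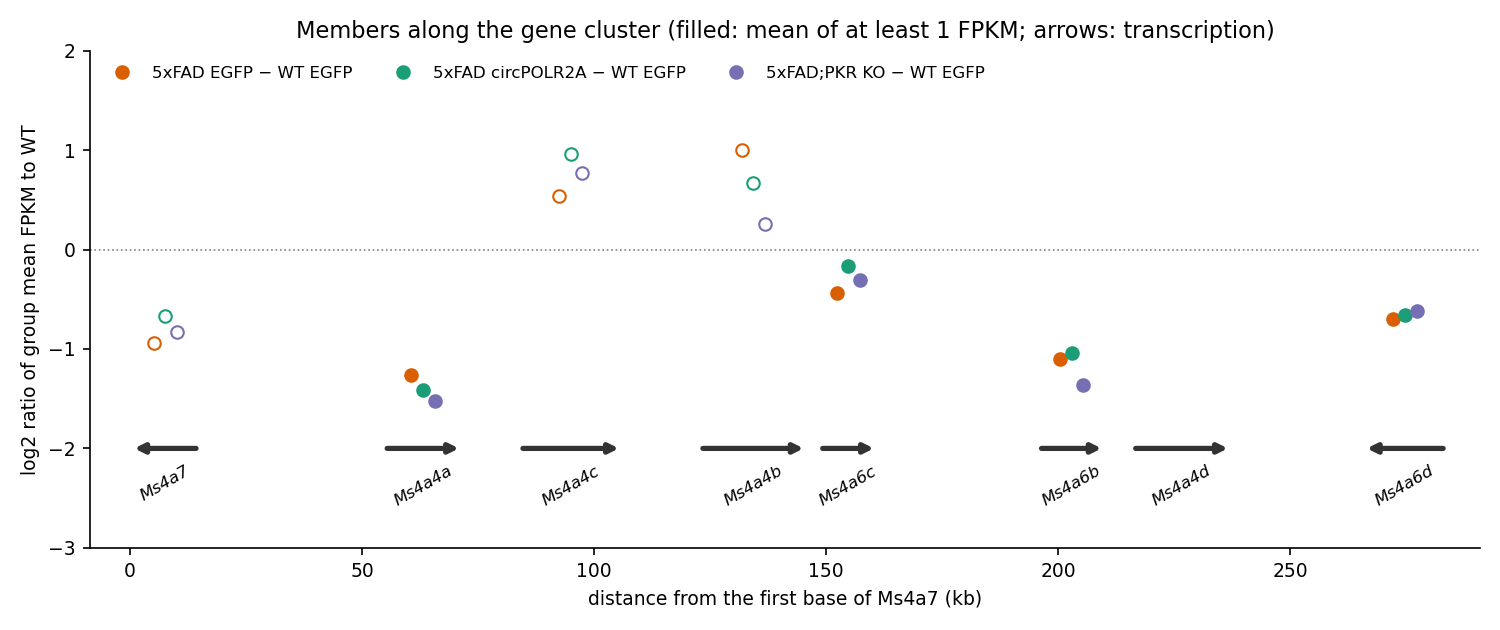
Log2 ratio of the group mean FPKM to the wild type mean for each member (vertical axis), placed along the gene cluster by distance from the first base of Ms4a7 in kb (horizontal axis); arrows show each gene and its direction of transcription, filled points are members whose mean reached 1 FPKM and open points are those below it. Ms4a7, Ms4a4a, Ms4a6b and Ms4a6d lie below 0 in all 3 groups of 5xFAD, Ms4a6c closer to 0, and the lowly expressed Ms4a4c and Ms4a4b above it.

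Within 5xFAD, no member was called different between EGFP, circPOLR2A and 5xFAD; PKR KO. With circPOLR2A against EGFP, Ms4a4a had means of 1.90 and 2.10 FPKM, Ms4a6b of 3.34 and 3.21 FPKM, Ms4a6c of 5.17 and 4.29 FPKM and Ms4a6d of 7.38 and 7.16 FPKM. No member was called by limma in this comparison, and neither was any gene (0%). The differences were -0.10 for Ms4a4a (95% interval -0.52 to 0.32), 0.04 for Ms4a6b (-0.38 to 0.45), 0.21 for Ms4a6c (-0.18 to 0.60) and 0.03 for Ms4a6d (-0.38 to 0.44). None of the 4 had an unadjusted p below 0.05 in any comparison within 5xFAD, by limma, and voom on recovered fragments called 0 of 6. By voom 5.43% of 12810 genes were called for circPOLR2A against the knockout and 0% in the other comparisons within 5xFAD. The 95% intervals hold the changes that the main fit did not exclude.

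For 5xFAD; PKR KO against 5xFAD EGFP, none of the 4 members was called, and 0.0832% of genes were. The differences were -0.17 for Ms4a4a (95% interval -0.59 to 0.25), -0.21 for Ms4a6b (-0.62 to 0.20), 0.11 for Ms4a6c (-0.29 to 0.50) and 0.07 for Ms4a6d (-0.34 to 0.48). For circPOLR2A against 5xFAD; PKR KO, none of the 4 members was called either, and 6.19% of genes were. There Ms4a6b had the widest gap, at 0.25 (-0.09 to 0.59), followed by Ms4a6c at 0.11 (-0.21 to 0.43), Ms4a4a at 0.07 (-0.27 to 0.41) and Ms4a6d at -0.04 (-0.38 to 0.29). By exact permutation tests over libraries the p-values of these 4 members within 5xFAD ran from 0.171 to 0.933. Ms4a6c was higher in all 4 knockout libraries than in both 5xFAD EGFP libraries (exact p = 0.20), as were 17.7% of the 10817 genes. At the filter of 0.3 FPKM, Ms4a7 and Ms4a4c were not called in any of these comparisons (limma, adjusted p from 0.620 to 0.878). Of 13021 genes, 4.29% were called at that filter for circPOLR2A against the knockout and 0% in the others within 5xFAD. Ms4a4c was above both 5xFAD EGFP libraries in all 4 with circPOLR2A, with an exact permutation p of 0.0667, the smallest that 4 against 2 libraries allow, and 16.6% of the 10817 genes were also above both.

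**Figure D3:**
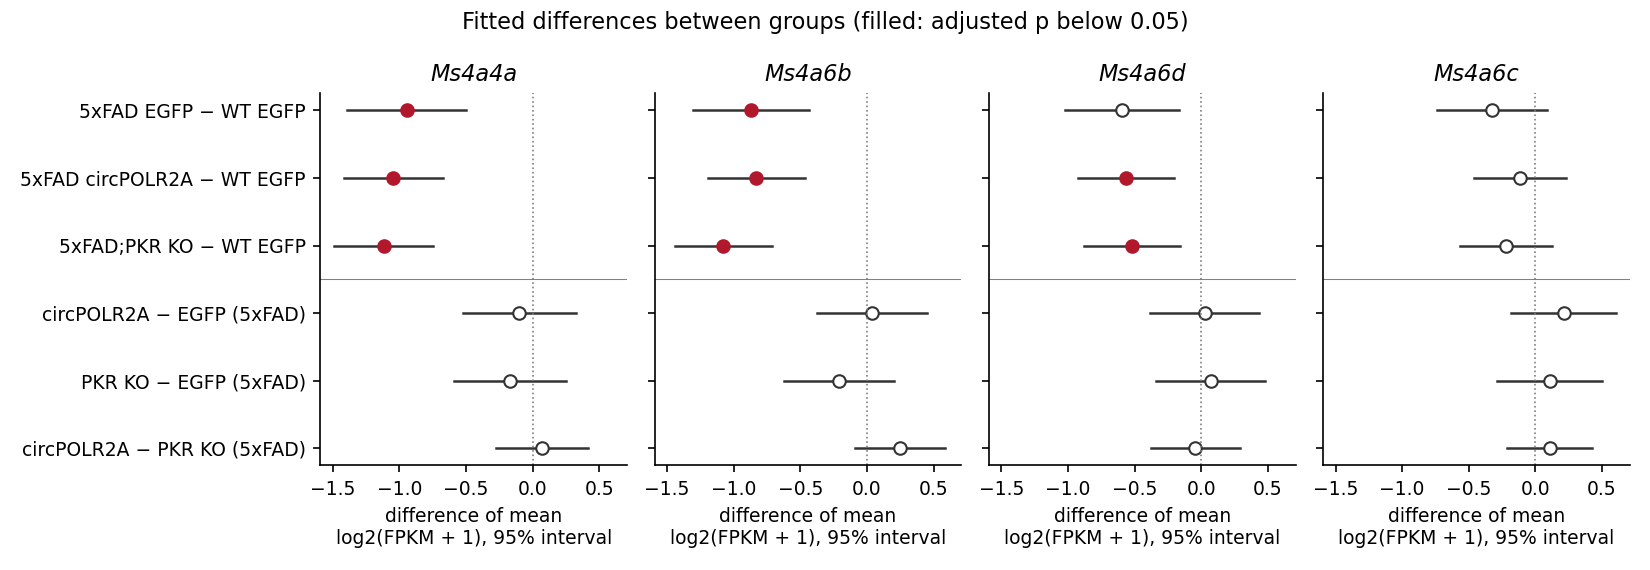
Differences of mean log2(FPKM + 1) with 95% intervals from limma for the 4 members whose mean reached 1 FPKM (panels) in 6 comparisons (rows), with filled points where the adjusted p was below 0.05. The 3 upper rows are comparisons with wild type and hold all 8 filled points, in Ms4a4a, Ms4a6b and Ms4a6d, and every interval in the 3 lower rows, within 5xFAD, spans 0.

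Ms4a6b and Ms4a6c, neighbours with 85.1% identical coding bases, stood in a different proportion in wild type and in 5xFAD, which a ratio within each library shows without any scaling between libraries. The ratio of Ms4a6c to Ms4a6b was 0.869, 0.836 and 0.830 in wild type. It was 1.31 and 1.37 in 5xFAD EGFP, 1.62, 1.70, 1.43 and 1.45 with circPOLR2A and 1.50, 1.80, 1.67 and 2.29 in 5xFAD; PKR KO. The wild type libraries were closely alike, wild type replicate 3 included, and all 10 libraries of 5xFAD were above them. This separation holds for most genes set over Ms4a6b, since the ratio to Ms4a6b was higher in all 10 than in wild type for 74.6% of the other 10816 genes. Set over Ms4a6c, 1.04% of the other genes were lower in all 10, as Ms4a6b was, and 11.5% were higher. The group means were 0.845 ± 0.021 in wild type (SD, n = 3), 1.34 ± 0.04 in 5xFAD EGFP (n = 2), 1.55 ± 0.13 with circPOLR2A (n = 4) and 1.81 ± 0.34 in 5xFAD; PKR KO (n = 4). The exact permutation test on the log2 ratio gave p = 0.0286 for circPOLR2A and for 5xFAD; PKR KO against wild type and p = 0.10 for 5xFAD EGFP, each the smallest these numbers of libraries allow. Against 5xFAD EGFP, the same permutation test gave p = 0.133 for circPOLR2A and for the knockout, where the smallest possible was 0.0667. The share of other genes with such a ratio was computed against wild type only.

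The ratio of Ms4a6c to Ms4a4a was also higher in every 5xFAD library than in wild type, as was that of 81.6% of genes to Ms4a4a, with mean ratios of 1.14 in wild type, 2.10 in 5xFAD EGFP, 2.82 with circPOLR2A and 2.78 in 5xFAD; PKR KO. The ratio of Ms4a6b to Ms4a4a, the members called lower in all 3 comparisons, overlapped between groups, with means of 1.35, 1.56, 1.85 and 1.55. The ratio of Ms4a6d to Ms4a6b was 1.70 ± 0.05 in wild type and 2.24 ± 0.24, 2.25 ± 0.49 and 2.92 ± 0.51 in the groups of 5xFAD. In all, 36 ratio tests were made, over the 6 pairs of these members and 6 comparisons, after the values had been seen. Of these, 6 had an exact permutation p below 0.05, each at 0.0286, and with Benjamini-Hochberg adjustment over the 36 their p was 0.171.

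**Figure D4:**
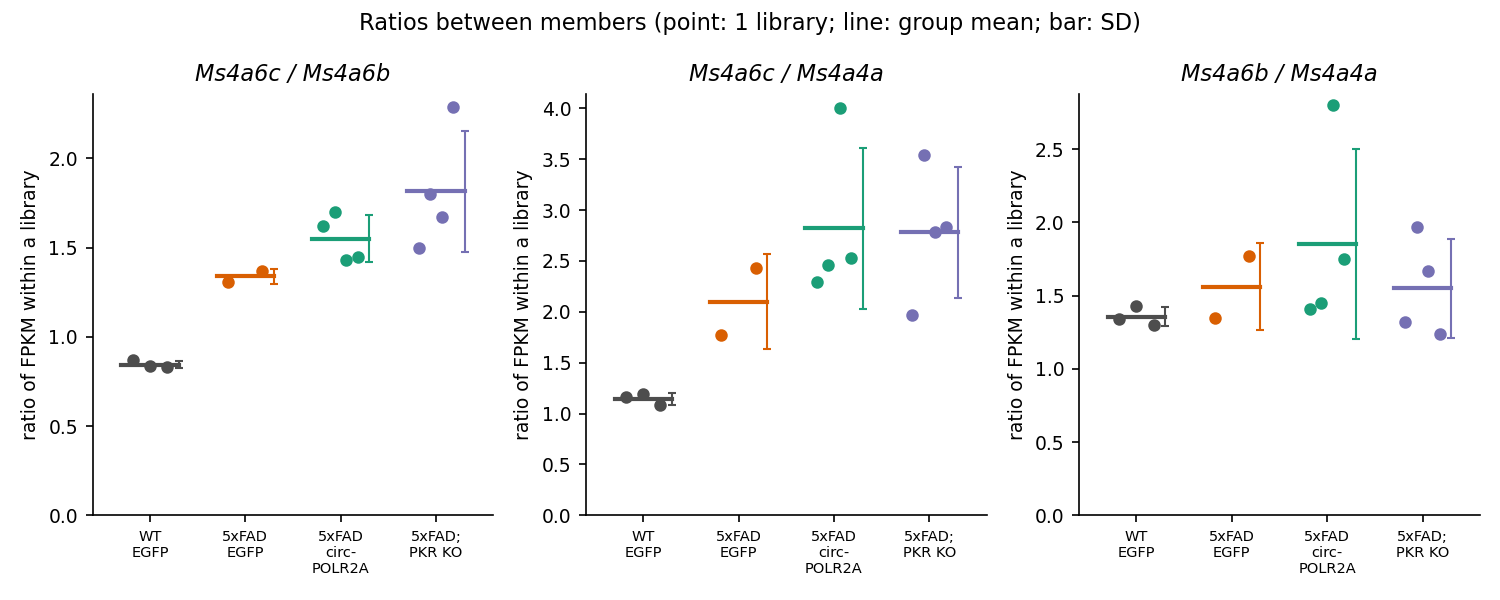
Ratio of FPKM within each library for 3 pairs of members by group, on linear axes from 0; points are libraries, horizontal lines group means and vertical bars SDs. In the pair Ms4a6c to Ms4a6b the wild type libraries lie at 0.830 to 0.869 and those of 5xFAD at 1.31 to 2.29, and the pair Ms4a6b to Ms4a4a overlaps between groups.

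The low members in wild type replicate 3 moved with the low microglia markers of that library, so each member was also set against the summed microglia markers. Ms4a7 per 1000 FPKM of that sum was 0.321, 0.349 and 0.347 in wild type, and 0.174 to 0.231 in the 10 libraries of 5xFAD. Ms4a6b was 1.94, 1.62 and 1.66 in wild type and 0.542 to 0.898 in 5xFAD, and Ms4a4a was 1.45, 1.14 and 1.28 against 0.302 to 0.660. On this scale replicate 3 lay between the other wild type libraries for Ms4a4a, Ms4a6b and Ms4a7. Ms4a6d was 3.24, 2.84 and 2.78 in wild type, with replicate 3 still the lowest, and 1.60 to 2.29 in 5xFAD, without overlap. Ms4a6c was 1.69, 1.36 and 1.37 in wild type and 1.17 to 1.37 in 5xFAD, where only knockout replicate 3 reached the wild type range. Ms4a4c went the other way, at 0.0437, 0.0959 and 0.0802 in wild type, 0.109 and 0.121 in 5xFAD EGFP and 0.121 to 0.177 with circPOLR2A, without overlap, and at 0.0930 to 0.161 in 5xFAD; PKR KO, with overlap. Ms4a4b was 0.00265 to 0.00560 in wild type and 0.00105 to 0.00971 in 5xFAD. With the mean of log2(FPKM + 1) over the 10 markers in its place, Ms4a4a, Ms4a6b and Ms4a6d still lay below wild type in every 5xFAD library, Ms4a7 overlapped in 5xFAD; PKR KO, and Ms4a6c, Ms4a4c and Ms4a4b overlapped in all 3 groups. Of the 10817 genes, 3.45% lay below wild type in every 5xFAD library per marker sum and 1.42% on the log2 measure, and 9.40% and 11.8% lay above. Taken by group, per marker sum, 15.2% lay above wild type in 5xFAD EGFP and 10.7% with circPOLR2A, and 10.0% and 5.3% lay below. On the log2 measure 4.33% and 2.17% lay below in those groups. This scale was chosen after the values had been seen and carries no test.

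Markers of border macrophages were low in the libraries in which Ms4a4a, Ms4a6b and Ms4a7 were low. The sum of 12 such markers, among them Mrc1, Cd163, Pf4 and Lyve1, was 149, 164 and 109.8 FPKM in wild type, 72.9 and 58.4 FPKM in 5xFAD EGFP, 45.3 to 71.3 FPKM with circPOLR2A and 46.1 to 68.4 FPKM in 5xFAD; PKR KO. None of the 12 was at 0, and 9 were called lower by limma in each of the 3 comparisons with wild type (6.35%, 8.05% and 19.4% of all genes), with Mrc1 at -1.07 (adjusted p = 0.00436), -1.01 (adjusted p = 0.000930) and -1.47 (adjusted p = 4.36e-05). Colec12, a scavenger receptor, was called higher in 5xFAD; PKR KO. Within 5xFAD it was the only call among the 12, lower with circPOLR2A than with the knockout (limma, -0.53, adjusted p = 0.0381). Of 6 endothelial and mural cell markers, 5, 4 and 5 were called lower than wild type in these comparisons, and their sum was 72.4 to 162 FPKM in wild type and 29.7 to 81.4 FPKM in 5xFAD. The sum of 10 monocyte markers was 9.51 to 20.8 FPKM in wild type and 5.29 to 11.2 FPKM in 5xFAD. The part of these cells in the members' differences was not tested. Within wild type the border macrophage sum was lowest in replicate 3, as were Ms4a4a, Ms4a6b, Ms4a6c, Ms4a6d and Ms4a7.

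**Figure D5:**
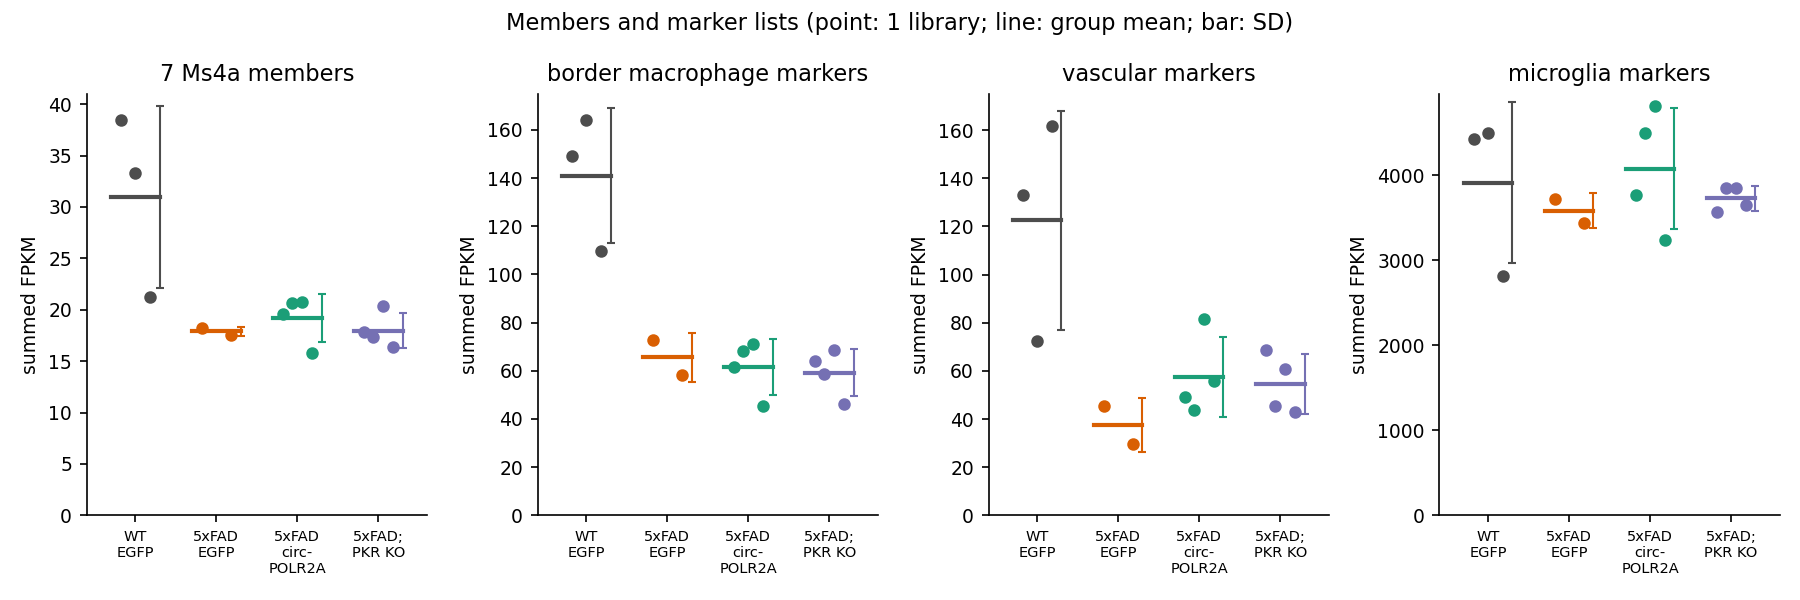
Summed FPKM of the 7 members and of the border macrophage, vascular (endothelial and mural cell) and microglia marker lists in each library by group, on linear axes from 0; points are libraries, horizontal lines group means and vertical bars SDs. The members' sum (21.2 to 38.5 FPKM in wild type, 15.8 to 20.7 FPKM in 5xFAD) and the border macrophage sum are both higher in the 3 wild type libraries, while the microglia sum overlaps between groups.

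The other listed genes of the family gave little signal. Of 14 further Ms4a genes on the fixed list, 11 were in the table, and 10 of those were below 0.1 FPKM in every library, Ms4a1 (CD20) and Ms4a2 (a chain of the mast cell IgE receptor) among them. Ms4a14 was the exception, at 0.522 ± 0.104 FPKM in wild type (SD, n = 3) and 0.292 ± 0.020, 0.305 ± 0.043 and 0.319 ± 0.068 FPKM in 5xFAD EGFP, circPOLR2A and 5xFAD; PKR KO. It lies beside Ms4a7 on chromosome 19 (11301249 to 11314454, minus strand). It was below the filter and was not tested in that fit. Tmem176a and Tmem176b, MS4A-related membrane proteins encoded elsewhere, went the other way. Tmem176b rose from 34.6 ± 6.9 FPKM in wild type to 55.2 ± 11.7 FPKM with circPOLR2A (limma, 0.65, adjusted p = 0.0153) and 59.6 ± 5.4 FPKM in 5xFAD; PKR KO (0.78, adjusted p = 0.00426). Tmem176a rose by 0.76 (limma, adjusted p = 0.00374) and 0.85 (adjusted p = 0.00134) in those groups. Neither was called in 5xFAD EGFP (limma, adjusted p = 0.126 and 0.191) or between groups of 5xFAD.

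The MS4A cluster is known for its link to TREM2, a microglial lipid receptor, so 13 genes of that axis were counted. Of 12 tested, 4 were called higher than wild type in each group of 5xFAD: Trem2, its adaptor Tyrobp, the related adaptor Hcst and the ligand Apoe. Of all genes tested, 7.65%, 17.8% and 17.5% were called higher in 5xFAD EGFP, with circPOLR2A and in 5xFAD; PKR KO. Trem2 was at 73.1 ± 17.9 FPKM in wild type (SD, n = 3) and 160 ± 14, 198 ± 46 and 215 ± 16 FPKM in 5xFAD EGFP, circPOLR2A and 5xFAD; PKR KO. Its limma differences were 1.15 (adjusted p = 0.00561), 1.43 (adjusted p = 0.000167) and 1.57 (adjusted p = 6.30e-05). None of the 12 was called lower in 5xFAD EGFP, 1 with circPOLR2A (Cd33, an inhibitory sialic acid receptor) and 2 in 5xFAD; PKR KO (Cd33 and Adam10, the protease that sheds TREM2), shares near the 8.05% and 19.4% of all genes called lower. No gene of the axis was called between groups of 5xFAD. Ms4a4a and Trem2 thus moved in opposite directions against wild type in all 3 groups of 5xFAD.

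Members followed each other within groups as well. After each group's mean was removed, the deviations of log2(FPKM + 1) over the 13 libraries correlated at Pearson's r = 0.872 for Ms4a6b and Ms4a6c, 0.839 for Ms4a6c and Ms4a6d and 0.739 for Ms4a6b and Ms4a6d, and at 0.538 to 0.610 for Ms4a4a with these. The libraries share their depth scaling, and wild type replicate 3 had the lowest microglia and the highest oligodendrocyte marker sum. The part of either in these values was not tested, and they are given as descriptions. By the same measure the genes most like Ms4a4a were Rpia (0.930), Gtf2b (0.896) and Prmt6 (0.893), and those most like Ms4a6b were Rnf167 (0.980), Mark2 (0.979) and Serpinf1 (0.978). For Ms4a6c they were Rapgef5 (0.991), Ifngr1 (0.984) and Slc29a1 (0.981), and for Ms4a6d Pip5k1a (0.956), Tmem64 (0.937) and Rbm48 (0.925). No member was among another member's 3 most similar genes.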

How the data were processed

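Per the labels' protocols, total RNA of microglia was depleted of ribosomal RNA and made into stranded libraries. HISAT2 2.1.0, Bowtie2 2.3.5, featureCounts 1.5.1 and the build mm10 are named in the submitters' processing notes. How counting treated strand, multi-mapping fragments or annotation is not given in the sources used here. The authors deposited 1 table of FPKM, with 1 column per library. FPKM is scaled to each library, so abundant genes that change can move the others. Depth was recovered from low values with GENCODE M21 exon lengths: of 47122 values below 0.3 FPKM, 90.7% were whole fragments within 0.02. Values at 0.5 of a fragment occurred in Ms4a6b, Ms4a6c, Ms4a6d, Ms4a7 and Ms4a4a.

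Groups came from the titles. Log2(FPKM + 1) of the 10817 genes whose mean reached 1 FPKM was fitted with limma 3.58.1 in R 4.3.3 (all 13 libraries, a mean per group, eBayes with trend), with Benjamini-Hochberg adjustment over all genes and a threshold of 0.05. The fit was tested on simulated data. Exact permutation tests were two-sided, over libraries. Alternatives changed the pseudocount, filter, scaling, libraries, weights and block, and voom on recovered fragments and the ratios were added after seeing the data.

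The members, the lists (other Ms4a genes with the Tmem176 pair, the TREM2 axis and the cell type markers) and the tests were chosen with earlier results of these data known. Genes named were all members, those of the 2 pathway lists called in any comparison and the 3 genes most like each tested member, and others, such as Ms4a14 and the markers quoted, were picked to describe their lists. Summed FPKM in wild type and in 5xFAD was 2.08 to 3.97 and 1.50 to 3.70 for B cell, 5.88 to 7.79 and 1.31 to 26.7 for neutrophil, 0.115 to 0.295 and 0.0593 to 0.404 for mast cell and 4.69 to 15.1 and 3.59 to 12.6 for neuron markers. It was 76.4 to 281 and 119 to 226 for astrocyte and 266 to 1134 and 163 to 576 for oligodendrocyte markers. Trac, Trbc2, Ighm, Ms4a13, Ms4a18 and Ms4a20 were not analysed here. The share of single genes in the microglia marker sum is not reported here.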

Additional observations from a re-analysis of the deposited data

How the results depend on the processing

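The count of 2 members called in 5xFAD EGFP against wild type, both lower, was 0 in a fit of these groups alone, 4 with array weights, 3 with every gene above 0 tested, with a mean filter of 0.3 FPKM and with voom on recovered fragments (Ms4a7 added, lower), 3 with quantile and with same-sum scaling (Ms4a6d added), and 0 to 4 when 1 library was left out. In 5xFAD EGFP against wild type 1.14% of genes tested were called lower in the fit of these groups alone and 10.5% with array weights. The share was 5.63% with every gene above 0 tested, 7.69% at 0.3 FPKM, 6.03% with voom and 9.12% with quantile scaling. It was 3.11% to 9.51% without 1 wild type library. The count of 3 with circPOLR2A against wild type, all lower, was 5 in the 3 settings with more genes (4 lower with Ms4a7, and Ms4a4c higher), and 2 to 3 when 1 library was left out. In those 3 settings 8.26%, 10.1% and 9.63% of genes were called lower, and with 1 library left out 4.66% to 8.81%. The count of 3 in 5xFAD; PKR KO against wild type, all lower, was 5 with every gene above 0 tested (4 lower with Ms4a7, and Ms4a4c higher), 4 lower with the filter of 0.3 FPKM, with voom and with array weights, and 2 to 4 when 1 library was left out. In the 3 comparisons within 5xFAD the count was 0 in every setting, while the number of all genes called changed with the setting. With array weights 822 of 10817 genes were called for the knockout against EGFP and 3161 for circPOLR2A against the knockout. In fits of 2 groups alone these numbers were 577 and 893. For circPOLR2A against EGFP both settings called 0 genes. Same-numbered libraries correlated at -0.42 to 0.69 over 16 pairs. By pair of groups their mean correlation was 0.02 to 0.33, against -0.11 to -0.02 for libraries of other numbers. These values do not settle whether the replicate numbers are a pairing, and the main fit took none. A replicate block in the fit gave counts against wild type of 2, 2 and 2, with Ms4a6d lost with circPOLR2A (limma, adjusted p = 0.0517) and in the knockout (adjusted p = 0.0549), and the block moved no count within 5xFAD. Rescaling libraries to the same FPKM sum moved the median of all genes to -0.17, -0.20 and -0.24 in the 3 comparisons with wild type, and 80.9%, 82.5% and 82.2% of called genes were then lower, against 45.4%, 31.2% and 52.5% as deposited. Of all genes tested, 27.7%, 43.3% and 50.1% were called lower at the same sum, against 6.35%, 8.05% and 19.4% as deposited, so the background of the members' counts of 3, 3 and 4 lower there was much higher. With quantile and median-ratio scaling the lower share of called genes was 48.8% and 45.7% for circPOLR2A against wild type, and 67.9% and 72.4% for circPOLR2A against the knockout, where it was 30.9% as deposited and 50.4% at the same sum. At the same sum Ms4a6d was called lower in 5xFAD EGFP (-0.76, limma, adjusted p = 0.0123) and Ms4a6c in the knockout (-0.42, adjusted p = 0.0284). Differences near 0, none called in either setting, changed sign. For circPOLR2A against EGFP these were Ms4a6d (-0.0585 with quantile, -0.0750 with same-sum and -0.0618 with median-ratio scaling, -0.0422 to 0.119 with 1 library left out), Ms4a6b (-0.0278, -0.0524 and -0.0413 with those scalings, -0.0546 with array weights, -0.0406 to 0.0880 with 1 library left out) and Ms4a4a (0.0266 with the replicate block, -0.268 to 0.0667 with 1 library left out). For circPOLR2A against the knockout they were Ms4a6d (0.0291 with array weights, -0.114 to 0.0467 with 1 library left out) and Ms4a4a (-0.0506 with quantile scaling, -0.0142 to 0.151 with 1 library left out). For circPOLR2A against wild type it was Ms4a6c (-0.341 to 0.0575 with 1 library left out). The cause of these changes was not tested. Depth limits Ms4a4b, with 2 to 19 fragments.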
